A study of Homo sapiens with 6 samples.

Results

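The genes described here are 36 genes of the G2 and M phases of the cell cycle, taken by name from a fixed list of cyclins, kinases, checkpoint, kinetochore and motor genes, not by a threshold on measured values. All 36 had a row among the 33117 in the deposited table, and all 36 reached the level needed for testing, among 13941 genes that did. Total RNA was sequenced from WPMY-1, an immortalised line of stromal cells from normal human prostate, kept in DMEM with 5% FBS. There were 3 libraries of the shCAVIN1 group, whose cells carried a lentiviral short hairpin RNA against CAVIN1, and 3 libraries of the shCtrl group, whose cells carried the pLKO1 plasmid as control. CAVIN1 is a coat protein of caveolae, the small pits of the plasma membrane, and the comparison asks what lowering it does to gene expression. All cells of both groups had been transduced and selected with puromycin. The labels speak of stable clones and independent biological replicates. Whether each library had its own transduction or clone is not stated, and a p-value here covers no more than the spread among the 3 libraries of a group.

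Cells enter mitosis when the kinase CDK1, bound to cyclin A or cyclin B, is activated by CDC25 phosphatases, which remove phosphates placed by the kinase WEE1 and its relative PKMYT1. PLK1 and the Aurora kinases then drive the building of the spindle, kinetochores attach chromosomes to microtubules, and the spindle checkpoint holds back the anaphase-promoting complex and its activator CDC20 until all are attached. Many of these genes are transcribed late in the cell cycle, through promoter elements called CHR and CCAAT boxes and the factors FOXM1 and MYBL2, so their RNA is commonly read as a sign of cycling cells. WPMY-1 cells were immortalised with the large T antigen of simian virus SV40, which binds RB1 and p53. In RNA from whole cultures, a larger share of cells in these phases and more RNA per cell cannot be told apart.

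The hairpin was directed at the sequence gtggaggttgaggaggttatt, shown because it defines the shCAVIN1 group. Its letters lie in exon 2 of 2 of CAVIN1, within the coding part, at chr17:42405221-42405241 on the minus strand (GRCh38, transcript ENST00000357037.5), and no other gene among the GENCODE 29 transcripts held all 21 bases. CAVIN1 is listed under its older symbol PTRF. It stood at 134, 139 and 150.2 FPKM in shCAVIN1 replicates 1 to 3, against 329.6, 347 and 330.3 FPKM in shCtrl replicates 1 to 3, without overlap (log2 fold change -1.25, SE 0.0586, limma adjusted p = 2.88e-05).

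The promoters of 6 members are shown because windows of this kind hold the CHR and CCAAT letters that many genes of this class share. They are the 3 members that rose with the lowest adjusted p and the 3 that did not pass with the highest, among those with 1 RefSeq start (GRCh38.p14). Each line gives the 250 bases before the start, 5′ to 3′ on the gene's strand, with the letters of the CHR core (TTTGAA or TTCGAA) and of CCAAT, on either strand, in capitals.
BUB1, chr2:110678064-110678313, minus strand: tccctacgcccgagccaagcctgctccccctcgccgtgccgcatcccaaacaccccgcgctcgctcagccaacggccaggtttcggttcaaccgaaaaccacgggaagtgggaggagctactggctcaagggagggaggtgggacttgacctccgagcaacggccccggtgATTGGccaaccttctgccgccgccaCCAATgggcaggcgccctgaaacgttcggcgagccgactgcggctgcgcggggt
CDC20, chr1:43358731-43358980, plus strand: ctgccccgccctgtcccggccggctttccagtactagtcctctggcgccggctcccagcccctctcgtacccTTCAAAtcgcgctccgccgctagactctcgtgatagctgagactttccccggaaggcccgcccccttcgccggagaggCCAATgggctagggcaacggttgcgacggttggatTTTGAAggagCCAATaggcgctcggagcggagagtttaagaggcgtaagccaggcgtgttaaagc
CENPA, chr2:26785806-26786055, plus strand: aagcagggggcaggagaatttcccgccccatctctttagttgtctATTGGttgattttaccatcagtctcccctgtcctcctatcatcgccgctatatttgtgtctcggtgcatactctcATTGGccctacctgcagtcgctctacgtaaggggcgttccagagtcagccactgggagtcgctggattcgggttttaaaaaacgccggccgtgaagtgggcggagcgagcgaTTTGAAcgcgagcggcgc
CCNB2, chr15:59104896-59105145, plus strand: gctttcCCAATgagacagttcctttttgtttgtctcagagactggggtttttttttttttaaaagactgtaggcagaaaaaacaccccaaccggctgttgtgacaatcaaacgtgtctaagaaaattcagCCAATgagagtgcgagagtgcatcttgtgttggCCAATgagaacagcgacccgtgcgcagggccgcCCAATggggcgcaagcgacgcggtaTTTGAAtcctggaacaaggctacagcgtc
KIF23, chr15:69414099-69414348, plus strand: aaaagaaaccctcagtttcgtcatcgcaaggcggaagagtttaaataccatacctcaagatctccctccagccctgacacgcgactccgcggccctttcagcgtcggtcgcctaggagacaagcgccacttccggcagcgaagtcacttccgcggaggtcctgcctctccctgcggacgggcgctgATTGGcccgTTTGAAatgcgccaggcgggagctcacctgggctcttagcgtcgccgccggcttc
TOP2A, chr17:40417897-40418146, minus strand: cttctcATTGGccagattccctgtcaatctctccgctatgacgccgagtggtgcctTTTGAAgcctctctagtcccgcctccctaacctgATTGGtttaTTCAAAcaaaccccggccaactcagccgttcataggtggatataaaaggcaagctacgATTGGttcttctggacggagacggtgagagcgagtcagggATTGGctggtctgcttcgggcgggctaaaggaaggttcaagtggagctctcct
BUB1, CDC20 and CENPA were among the members with the clearest rises, and CCNB2, KIF23 and TOP2A among those with the least difference, and CCAAT letters stood in all 6 sequences. Over the whole window of 250 bases before and 50 after the start, 24 of the 30 members with a window (80%) held a CHR core on either strand, against 19.5% of all 27305 genes with a window. In these counts, a gene with several RefSeq starts counted if any of its windows held the letters. CCAAT was held by 24 of the 30, against 39.7% of all genes, and both kinds by 20 of the 30 (66.7%), against 7.85% of all genes. TTCGAA reads the same on both strands, and a CCAAT can share its end bases with a CCAAT of the other strand or with TTTGAA. A CHR core was held by 13 of the 17 members with a window that rose and by 11 of the 13 that did not pass. The members with no window were BIRC5, AURKA, TPX2, UBE2C, BUB3 and TTK. A match is a description of these letters, not of a bound site.

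Many of these genes rose in shCAVIN1, by amounts that were modest and unequal, with CDK1, BUB1, CDC20, NUF2 and DLGAP5 among the clear rises and CCNB1, CCNB2, AURKB and TOP2A among those that did not pass. Of the 36, 18 were higher at an adjusted p under 0.05, 0 were lower and 18 did not pass, against 27.3% of all tested genes higher and 28.2% lower (55.5% in either direction). At an unadjusted limma p under 0.05, 20 were higher and 1, BUB1B, was lower. The shares of all tested genes at that unadjusted threshold were not computed. With quantile normalization before limma 20 were higher and 2 lower, beside 30.7% of all 13941 tested genes higher and 3759 genes lower. The log2 fold changes of those that passed ranged from 0.19 for KIF4A to 0.84 for NUF2. The 36 had a median log2 fold change of 0.22, against -0.02 for all tested genes, and the median absolute log2 fold change was 0.22 for the members and 0.27 for all tested genes. FPKM (fragments per kilobase of transcript, scaled to the mapped fragments) is a level per transcript length, so it can be compared between genes. Log2 fold changes are differences of log2(FPKM + 0.5), tested with limma across all 13941 genes with Benjamini-Hochberg adjustment, and errors of means are SD with n = 3 per group.

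The summed level of the 36 genes was 2847, 2819 and 2848 FPKM in shCAVIN1 replicates 1 to 3, against 2276, 2646 and 2346 FPKM in shCtrl replicates 1 to 3. The groups did not overlap in this sum, and shCtrl replicate 2 lay closest to the shCAVIN1 libraries. Against the summed FPKM of protein-coding genes, scaled to 1000000, the members made up 6005 to 6244 in shCAVIN1 and 5196 to 5453 in shCtrl. Within shCAVIN1 the members were very even, with a median coefficient of variation of 1.62% against 4.70% for all tested genes, and within shCtrl it was 9.11% against 7.86%. The lowest member in shCtrl, at 8.30 FPKM, lay above 47.9% of tested genes, which reach down to a mean of 0.5 FPKM. The part of this difference in level was not tested.

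A control library stood apart and touches every result below. shCtrl replicate 2 was the highest control library for 32 of the 36 members and for 51.8% of all tested genes, and it lay above the mean of the other control libraries by a median log2 of 0.20 for the members and 0.05 for all tested genes. RN7SK, a small nuclear RNA, had a listed value of 0 in it and of 106035 to 151555 FPKM in the other libraries. The part of that row in the members' values was not tested. Without shCtrl replicate 2, 28 members were higher and 0 lower, with all 18 of the main calls kept and 10 added: ANLN, AURKA, BUB3, CCNB1, CCNB2, HMMR, KIF23, NUSAP1, PRC1 and TTK. In that setting 31% of all tested genes were higher, against 27.3% with all 6 libraries. Across the other libraries left out one at a time, 15 to 17 members were higher, beside 21.8% to 25.3% of all tested genes. Pearson r across genes lay between 0.896 and 0.913 for library pairs that crossed the groups, against 0.921 to 0.940 for pairs inside one. The depth is unknown, since the table holds no counts. Stromal markers such as VIM were high (252 to 310.3 FPKM over the 6 libraries) and DES was near 0 (at most 0.04 FPKM). Of the epithelial markers, CDH1, KRT14, KRT19, KLK3 and TP63 stayed under 0.1 FPKM in all 6 libraries, as did CD3E and ITGAM of leukocytes and PECAM1, VWF and KDR of endothelium. The summed level of 17 stromal markers, 14 of them at a mean of 1 FPKM or more, was 1015 to 1039 FPKM in shCAVIN1 and 1635 to 1799 FPKM in shCtrl, and that of 11 epithelial markers, of which 3 reached a mean of 1 FPKM, was 244 to 259 FPKM and 399.6 to 434 FPKM. The stromal genes did not all move one way: TAGLN stood at 332 to 358 FPKM in shCAVIN1 and 649 to 713 FPKM in shCtrl and FN1 at 53.8 to 63.9 and 145 to 259.8 FPKM, while S100A4 stood at 22.2 to 22.7 and 2.61 to 3.35 FPKM, ACTA2 at 9.70 to 10.2 and 4.63 to 5.20 FPKM, and VIM overlapped. Leukocyte markers summed to 10.1 to 10.4 FPKM in shCAVIN1 and 7.87 to 8.59 FPKM in shCtrl, with CD68 alone of 7 at a mean of 1 FPKM or more over the 6 libraries, and the 5 endothelial markers to 1.151 to 1.202 FPKM and 0.26 to 0.396 FPKM. The part of these shifts in the members' values was not tested.

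**Figure D1:**
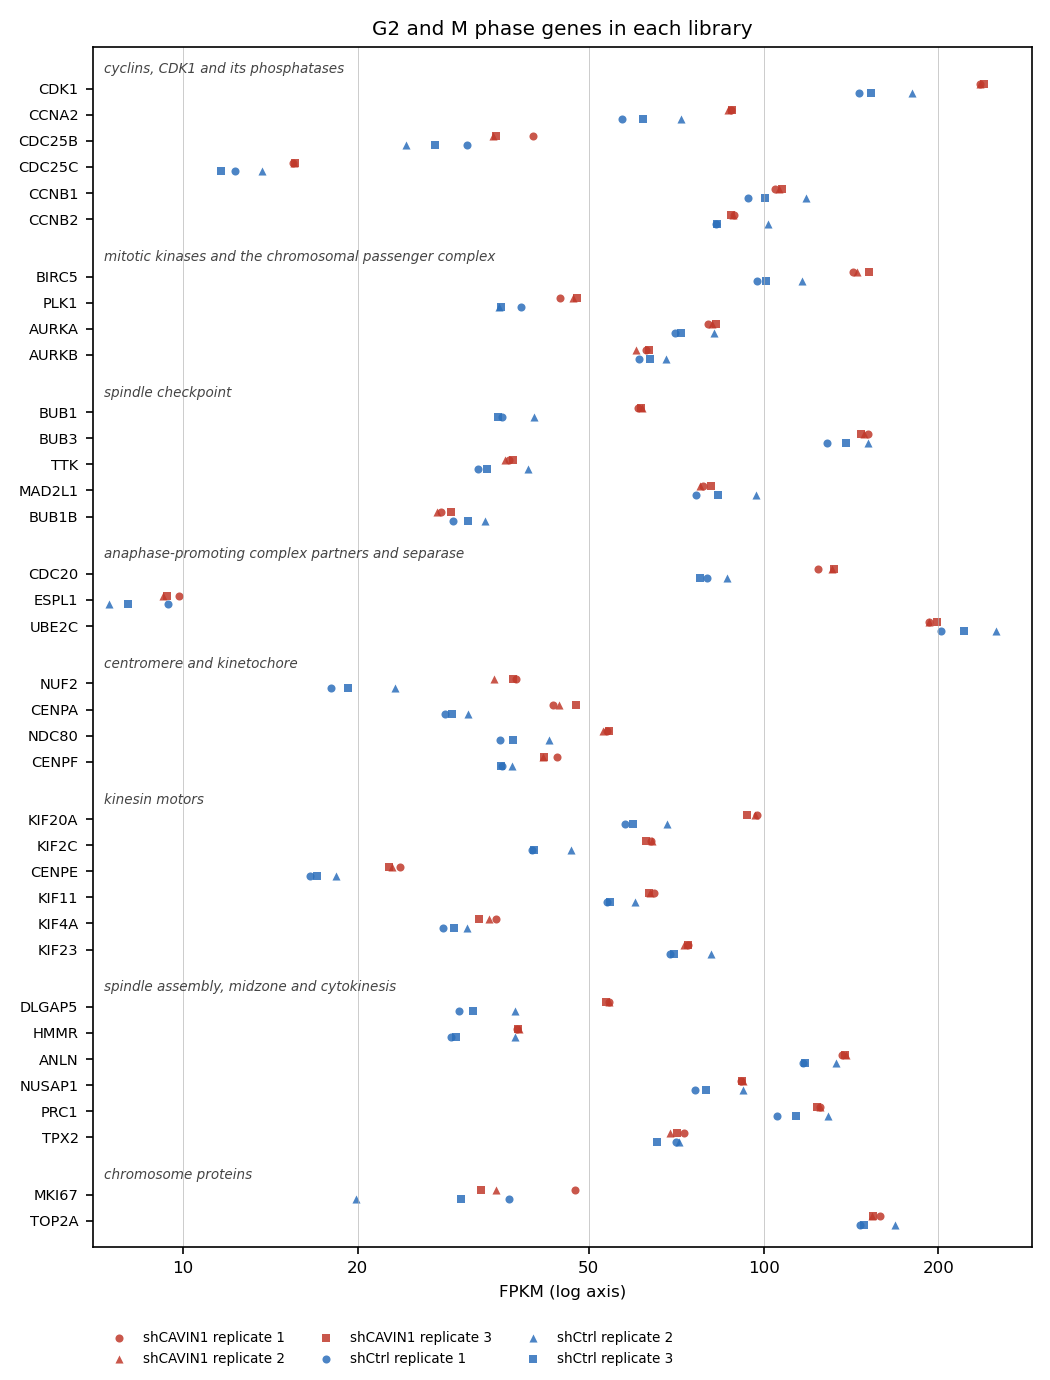
FPKM of the 36 genes in each of the 6 libraries, on a log axis, grouped by role, with shCAVIN1 in red above shCtrl in blue and the replicate number as the marker shape. The shCAVIN1 libraries lie close together, and shCtrl replicate 2 is the highest control for 32 of the 36 genes.

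Among the cyclins, CDK1 and its phosphatases, 4 of 6 rose (66.7%, against 27.3% of all tested genes), and both B cyclins did not pass. CDK1, the kinase that brings cells into mitosis, stood at 236, 236 and 240.2 FPKM in shCAVIN1 replicates 1 to 3, against 146, 180.1 and 153 FPKM in shCtrl replicates 1 to 3. Every shCAVIN1 library lay above every control (log2 0.58, SE 0.0830, limma adjusted p = 0.00167). CCNA2, the A-type cyclin that partners CDK1 before the B cyclins do, stood at 87.8, 86.9 and 88.2 FPKM in shCAVIN1, against 57.1, 72.1 and 62.0 FPKM in shCtrl (log2 0.46, SE 0.0854, adjusted p = 0.00464 by limma). CCNB1, the main partner of CDK1 in mitosis, stood at 105, 106 and 108 FPKM in shCAVIN1 and at 94.0, 118 and 101 FPKM in shCtrl, so that the control range held all shCAVIN1 values (log2 0.03, SE 0.0867, limma adjusted p = 0.765). CCNB2 averaged 88.6 ± 0.570 FPKM in shCAVIN1 and 89.2 ± 10.9 FPKM in shCtrl. The phosphatases that activate CDK1 rose less: CDC25B averaged 36.2 ± 3.26 FPKM in shCAVIN1 and 27.4 ± 3.30 FPKM in shCtrl (log2 0.40), and CDC25C 15.5 ± 0.0397 and 12.5 ± 1.03 FPKM (log2 0.30). When rescaled to TPM, CCNA2 and CDC25C lost their calls (limma adjusted p = 0.0585 for CCNA2 and 0.116 for CDC25C). Their log2 fold changes were larger in that setting, at 0.585 for CCNA2 and 0.422 for CDC25C. The call of CDC25B was lost without shCAVIN1 replicate 1, without shCtrl replicate 3 and when scaled to the protein-coding sum, with adjusted p between 0.00507 and 0.0576 over all alternatives.

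Of the mitotic kinases and the chromosomal passenger complex, PLK1 and BIRC5 rose (50%, against 27.3% of all tested genes), and both Aurora kinases did not pass. BIRC5, the survivin subunit that places Aurora B on the centromere, stood at 143, 145 and 152 FPKM in shCAVIN1 replicates 1 to 3 and at 97.5, 117 and 101 FPKM in shCtrl (log2 0.48, SE 0.0758, limma adjusted p = 0.00241). PLK1, a kinase of spindle assembly and mitotic entry, stood at 44.6, 47.0 and 47.6 FPKM in shCAVIN1 and at 38.2, 35.0 and 35.3 FPKM in shCtrl (log2 0.36, SE 0.0512, limma adjusted p = 0.00168). The groups did not overlap for either gene, but both calls were lost when rescaled to TPM (limma adjusted p = 0.0532 for BIRC5 and 0.0627 for PLK1). The log2 fold changes were larger in that setting, at 0.605 for BIRC5 and 0.477 for PLK1. AURKA, the kinase of spindle poles, averaged 81.4 ± 1.28 FPKM in shCAVIN1 and 74.8 ± 6.37 FPKM in shCtrl, and AURKB, the kinase subunit of the passenger complex, 62.1 ± 1.65 and 64.3 ± 3.52 FPKM, both with overlapping groups.

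Of 5 spindle checkpoint genes, BUB1 alone rose (20%, against 27.3% of all tested genes), and 3 of the other 4 overlapped between groups. Of all tested genes, 31.3% lay wholly above the controls and 33.3% wholly below. BUB1, a kinase that recruits checkpoint proteins to kinetochores, stood at 60.8, 61.8 and 61.6 FPKM in shCAVIN1 replicates 1 to 3, against 35.5, 40.2 and 34.9 FPKM in shCtrl. Its lowest shCAVIN1 value was far above its highest control (log2 0.73, SE 0.0609, limma adjusted p = 0.000197). Its paralogue BUB1B, a subunit of the checkpoint complex that inhibits CDC20, stood at 27.9, 27.4 and 28.9 FPKM in shCAVIN1 and at 29.2, 33.1 and 30.9 FPKM in shCtrl. All 3 shCAVIN1 values of BUB1B lay below all 3 controls, but the gene did not pass (log2 -0.14, SE 0.0555, limma adjusted p = 0.067). BUB3, the partner of both, was the most abundant of the 5, at 151, 149 and 147 FPKM in shCAVIN1 and 128, 151 and 139 FPKM in shCtrl. MAD2L1, the checkpoint protein that binds CDC20, averaged 79.3 ± 1.82 FPKM in shCAVIN1 and 85.7 ± 10.5 FPKM in shCtrl, and the checkpoint kinase TTK 36.4 ± 0.516 and 34.9 ± 3.76 FPKM.

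CDC20, the activator of the anaphase-promoting complex, rose, and its E2 enzyme UBE2C did not pass and lay on the other side. CDC20 stood at 124, 131 and 132 FPKM in shCAVIN1 replicates 1 to 3 and at 79.9, 86.4 and 77.6 FPKM in shCtrl, without overlap (log2 0.67, SE 0.0556, limma adjusted p = 0.000199). UBE2C, which starts the ubiquitin chains that the complex builds, stood at 193, 193 and 199 FPKM in shCAVIN1 and at 202, 252 and 221 FPKM in shCtrl. Its 3 shCAVIN1 values were the lowest of the 6 (log2 -0.20, SE 0.0840, limma adjusted p = 0.0852). ESPL1, the separase that cleaves cohesin at anaphase, was the least abundant of the 36, at 9.49 ± 0.313 FPKM in shCAVIN1 and 8.30 ± 1.02 FPKM in shCtrl, and did not pass.

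All 4 centromere and kinetochore genes among the members rose, against 27.3% of all tested genes. Of 32 other genes of this class, 5 were higher and 10 lower. NUF2, a subunit of the complex that binds microtubule ends, stood at 37.5, 34.3 and 37.1 FPKM in shCAVIN1 replicates 1 to 3, against 18.0, 23.1 and 19.2 FPKM in shCtrl (log2 0.84, SE 0.0961, limma adjusted p = 0.000662). NDC80, its partner in that complex, stood at 53.8, 53.0 and 54.2 FPKM in shCAVIN1 and at 35.1, 42.8 and 37.0 FPKM in shCtrl (log2 0.49, SE 0.0751, limma adjusted p = 0.00226). CENPA, the histone H3 variant that marks centromeres, stood at 43.4, 44.5 and 47.5 FPKM in shCAVIN1 and at 28.3, 30.9 and 29.04 FPKM in shCtrl (log2 0.61, SE 0.0537, limma adjusted p = 0.000241). None of the 4 overlapped between groups, where 31.3% of all tested genes lay wholly above the controls and 33.3% wholly below. CENPF, a large outer kinetochore protein, rose the least, to 42.5 ± 1.31 FPKM in shCAVIN1 against 35.8 ± 0.897 FPKM in shCtrl (log2 0.24), and its call was lost when rescaled to TPM (limma adjusted p = 0.146), which left 3 of the 4. The log2 fold change of CENPF was larger in that setting, at 0.365.

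Of 6 kinesin motors 5 rose (83.3%, against 27.3% of all tested genes), and KIF23 did not pass. Of 8 further kinesins outside the members, 2 were higher and 2 lower. KIF20A, a motor of the spindle midzone and cytokinesis, stood at 97.6, 96.8 and 93.8 FPKM in shCAVIN1 replicates 1 to 3 and at 57.8, 68.3 and 59.5 FPKM in shCtrl (log2 0.63, SE 0.0695, limma adjusted p = 0.00056). KIF2C, which takes microtubules apart at centromeres, stood at 63.9, 64.2 and 62.8 FPKM in shCAVIN1 and at 39.9, 46.6 and 40.3 FPKM in shCtrl (log2 0.59, SE 0.0668, limma adjusted p = 0.000648). The groups were well apart for both motors. CENPE, the motor that carries chromosomes to the spindle equator, averaged 23.1 ± 0.542 FPKM in shCAVIN1 and 17.3 ± 0.945 FPKM in shCtrl (log2 0.41). KIF11, the motor that pushes spindle poles apart, and KIF4A, a chromosome-bound motor, rose by a log2 of 0.19 each, at adjusted p of 0.0218 and 0.021 by limma. Each of those 2 calls was lost under 6 of 16 alternatives, with adjusted p between 0.00125 and 0.24 for KIF11 and between 0.0081 and 0.218 for KIF4A. KIF4A has a near-identical intronless copy, KIF4B, with which fragments could be shared. KIF23, the motor subunit of centralspindlin, averaged 73.7 ± 0.738 FPKM in shCAVIN1 and 73.4 ± 6.70 FPKM in shCtrl.

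Of the 6 genes of spindle assembly, the midzone and cytokinesis, DLGAP5 passed the test (16.7% higher, against 27.3% of all tested genes). DLGAP5, a microtubule-bundling protein of the spindle, stood at 54.1, 54.1 and 53.5 FPKM in shCAVIN1 replicates 1 to 3 and at 29.9, 37.3 and 31.6 FPKM in shCtrl (log2 0.71, SE 0.0828, limma adjusted p = 0.000732). ANLN, the anillin of the cleavage furrow, stood at 137, 139 and 138 FPKM in shCAVIN1 and at 117, 133 and 118 FPKM in shCtrl, without overlap, and just missed the threshold (log2 0.17, SE 0.0609, limma adjusted p = 0.0551). HMMR, a spindle protein that also binds hyaluronan, likewise did not overlap, at 37.8 ± 0.181 FPKM in shCAVIN1 and 31.9 ± 4.71 FPKM in shCtrl (limma adjusted p = 0.075). The other 3 overlapped between groups, where 31.3% of all tested genes lay wholly above the controls and 33.3% wholly below. NUSAP1, a microtubule-stabilising protein, averaged 91.8 ± 0.268 FPKM in shCAVIN1 and 82.6 ± 8.52 FPKM in shCtrl, PRC1, which bundles midzone microtubules, 125 ± 1.03 and 116 ± 11.9 FPKM, and TPX2, the activator of Aurora A, 70.9 ± 2.02 and 69.2 ± 3.31 FPKM. An antisense gene, PRC1-AS1, lies at the PRC1 locus and how strand was treated in quantification is unknown here, so the reads of the pair cannot be told apart.

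The chromosome proteins MKI67 and TOP2A, both used as markers of proliferating cells, did not pass. MKI67, which coats mitotic chromosomes, stood at 47.4, 34.6 and 32.5 FPKM in shCAVIN1 replicates 1 to 3 and at 36.5, 19.9 and 30.1 FPKM in shCtrl. It was the most variable of the 36 and overlapped between groups (log2 0.42, SE 0.246, limma adjusted p = 0.19). TOP2A, the topoisomerase that untangles chromosomes, stood at 159, 154 and 154 FPKM in shCAVIN1 and at 147, 168 and 149 FPKM in shCtrl, which spanned all shCAVIN1 values (log2 0.01, SE 0.0631, limma adjusted p = 0.892).

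**Figure D2:**
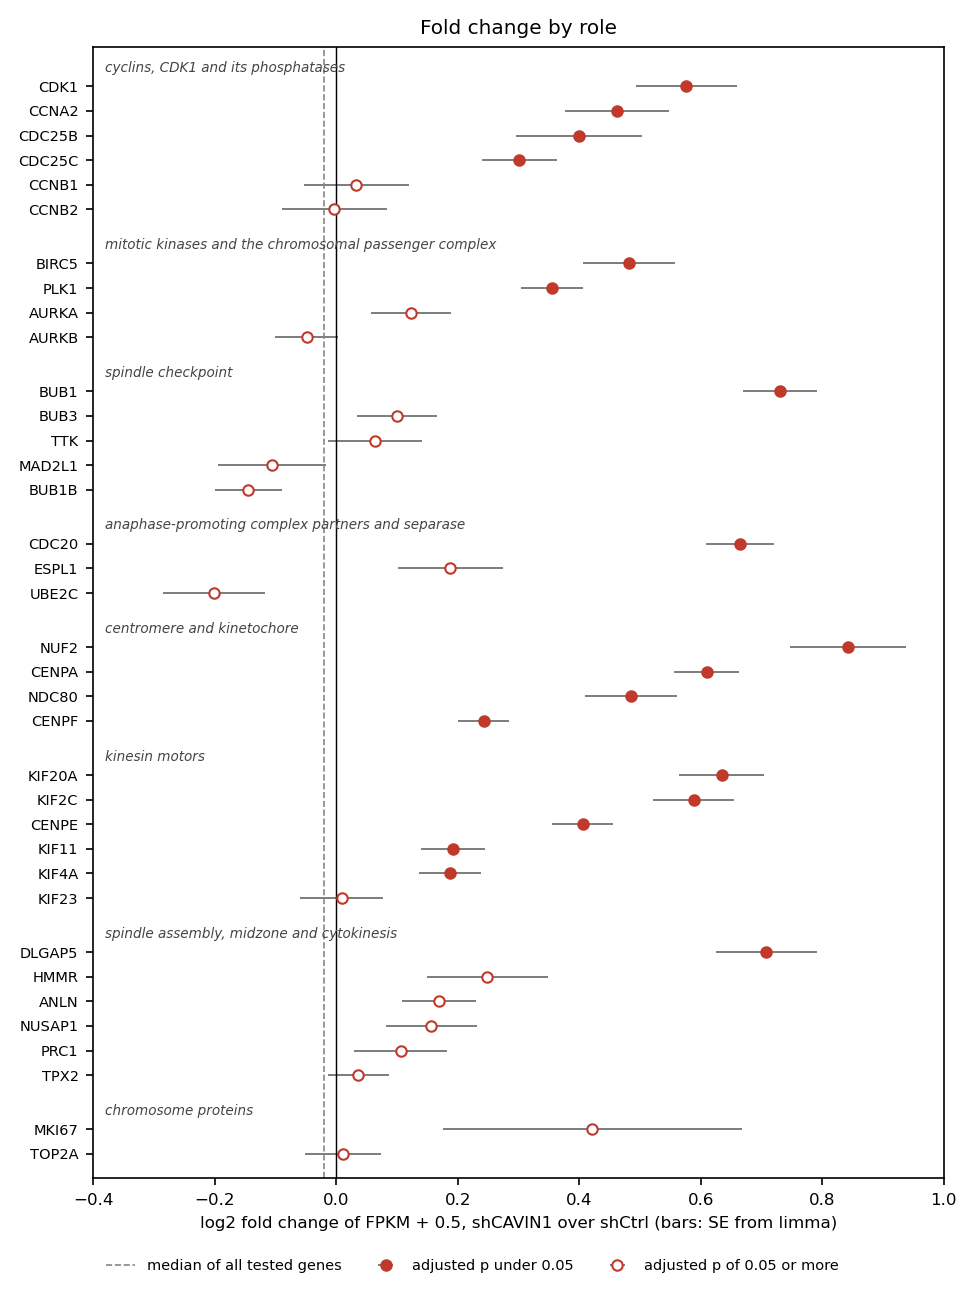
Log2 fold change of FPKM + 0.5, shCAVIN1 over shCtrl, for the 36 genes by role, with bars of 1 SE from limma (3 libraries per group), filled where the adjusted p was under 0.05, and a dashed line at the median of all tested genes. The values run from -0.20 for UBE2C to 0.84 for NUF2, and all 4 centromere and kinetochore genes are filled.

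In all, all shCAVIN1 libraries lay above all controls for 20 members and below them for 2 (BUB1B and UBE2C), against 31.3% and 33.3% of all tested genes, and 14 overlapped. An exact two-sided permutation test of any single member cannot go below p = 0.1 with 3 libraries against 3.

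Ratios between members that work together, taken within a library, are free of library scaling, and 10 of 12 differed between the groups without overlap. How often ratios of other gene pairs do so was not computed, so this count cannot be read as particular to partners. Of single tested genes, 31.3% lay wholly above the controls and 33.3% wholly below. The 12 pairs were chosen after the values were seen, as partners or paralogues, so they describe the unequal rises and are not independent evidence. The ratio of CDK1 to CCNB1 was 2.26, 2.22 and 2.23 in shCAVIN1 replicates 1 to 3, against 1.55, 1.52 and 1.52 in shCtrl. The 3 controls, shCtrl replicate 2 among them, lay within an SD of 0.0172, although CDK1 itself varied in them by an SD of 18.0 FPKM. BUB1 over BUB1B averaged 2.19 ± 0.0617 in shCAVIN1 and 1.19 ± 0.0490 in shCtrl, and BUB1 over BUB3 0.412 ± 0.00842 and 0.265 ± 0.0121. CDC20 over UBE2C averaged 0.663 ± 0.0183 in shCAVIN1 and 0.363 ± 0.0282 in shCtrl, and CDC20 over its inhibitor MAD2L1 1.63 ± 0.0539 and 0.954 ± 0.0812. For the passenger complex, BIRC5 over AURKB averaged 2.36 ± 0.0729 in shCAVIN1 and 1.63 ± 0.0735 in shCtrl. KIF23 over KIF20A went the other way, at 0.767 ± 0.0196 in shCAVIN1 and 1.19 ± 0.00935 in shCtrl. Members that both rose differed less: CDK1 over CCNA2 averaged 2.71 ± 0.0174 and 2.51 ± 0.0436, and NUF2 over NDC80 0.677 ± 0.0253 and 0.524 ± 0.0148. The groups did not overlap in 10 of the 12 ratios, each with an exact permutation p = 0.1, the smallest possible, and 0.12 after Benjamini-Hochberg adjustment over the 12. TPX2 over AURKA and PRC1 over KIF4A overlapped. Such a ratio shows unequal change and not which gene stayed level.

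**Figure D3:**
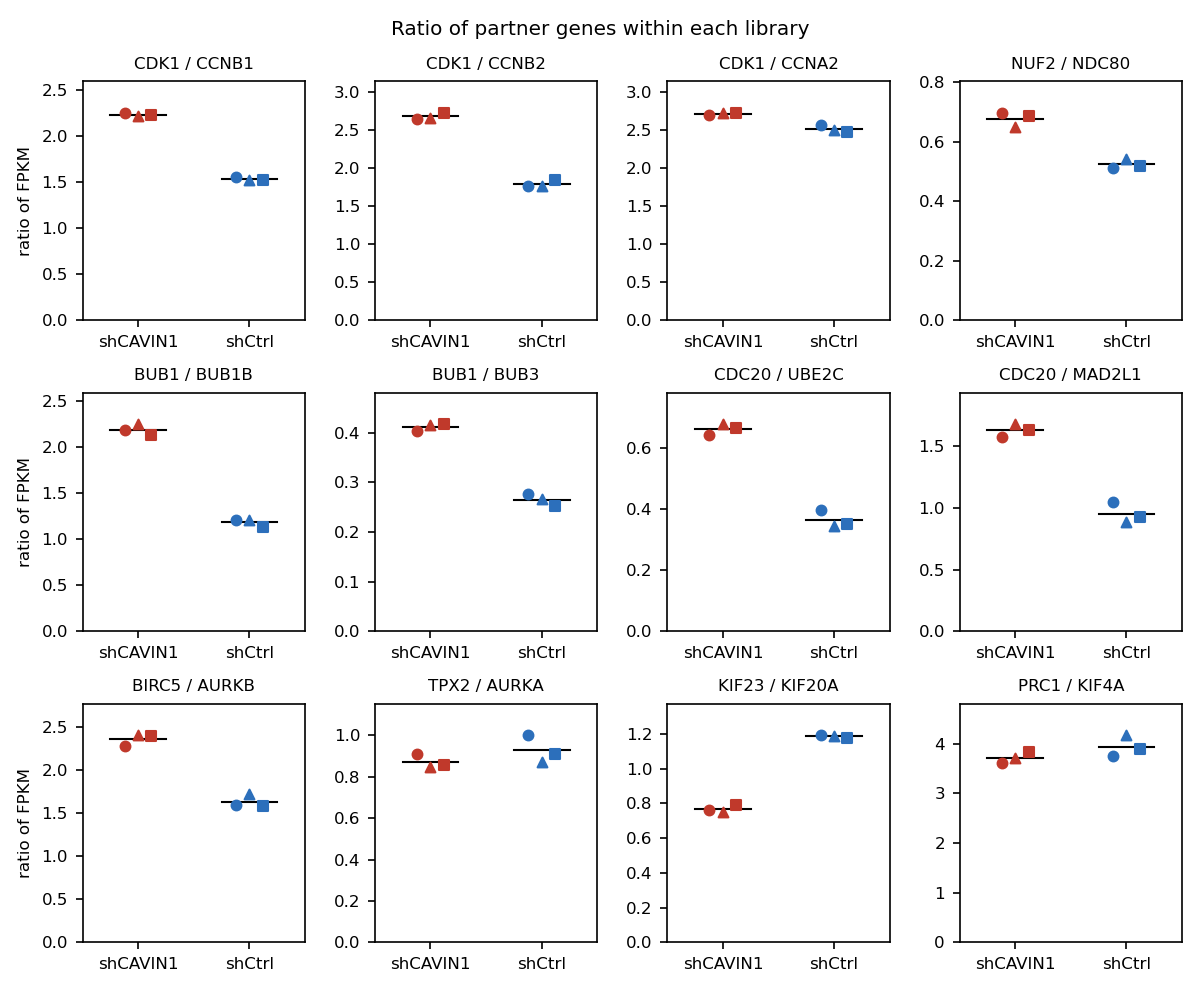
Ratio of FPKM of 2 members within each library for 12 pairs, shCAVIN1 left and shCtrl right, with replicates as marker shapes (circle 1, triangle 2, square 3) and the mean as a line, on axes from 0. In 10 of the 12 panels the groups do not overlap, and the share for other gene pairs was not computed.

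Beyond the 36, other genes of these phases moved in both directions. Of 108 further genes of the anaphase-promoting complex, kinetochore, kinesins, kinases, spindle, condensin and cohesin, 38 were higher, 24 lower and 46 did not pass, against the 27.3% and 28.2% of all tested genes, and their median log2 fold change was 0.06. The lists were drawn up with earlier results of these data known. When rescaled to TPM, 2254 of 14247 tested genes (15.8%) were higher and 1242 lower, beside which the TPM counts of the lists below stand. Among genes named below that lost their call there, rises were larger than as reported, falls were smaller, and SE were larger.

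Of 17 further spindle and cytokinesis genes, 12 were higher (70.6%, against 27.3% of all tested genes) and 0 lower (against 28.2%), with a median log2 of 0.31. When rescaled to TPM, 3 were higher and 0 lower. CKAP5, a microtubule polymerase, rose to 59.4 ± 1.60 FPKM in shCAVIN1 against 43.1 ± 0.606 FPKM in shCtrl, CDCA3 to 39.6 ± 0.484 FPKM against 24.3 ± 2.37 FPKM, and TROAP to 57.5 ± 0.438 FPKM against 47.5 ± 0.397 FPKM, where TROAP lost its call when rescaled to TPM (limma adjusted p = 0.116). Of 18 subunits, activators and targets of the anaphase-promoting complex, 7 were higher (38.9%) and 2 lower (11.1%, ANAPC15 and ANAPC16), and 3 were higher and 0 lower when rescaled to TPM. Its subunits ANAPC11 and CDC16 rose 1.55-fold and 1.54-fold, and UBE2S, the E2 that lengthens the chains UBE2C begins, stood at 490.0 ± 18.2 FPKM in shCAVIN1 and 367 ± 10.7 FPKM in shCtrl (limma adjusted p = 0.0719 when rescaled to TPM).

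Of 32 other kinetochore and centromere genes, 5 were higher and 10 lower (15.6% and 31.2%, against 27.3% and 28.2% of all tested genes), with a median log2 of -0.05. When rescaled to TPM, 2 were higher and 1 lower with a median of 0.07, where the median of all tested genes was 0.09. Relative to that of all tested genes, the median of the list was -0.033 as reported and -0.023 when rescaled to TPM. ZWINT, a kinetochore scaffold protein, rose to 163 ± 2.28 FPKM in shCAVIN1 against 93.8 ± 7.32 FPKM in shCtrl. CENPK, of the inner kinetochore, fell to 19.5 ± 0.152 FPKM in shCAVIN1 against 34.7 ± 2.87 FPKM in shCtrl, and KNTC1, of the complex that recruits dynein, to 21.96 ± 0.455 FPKM against 32.7 ± 1.42 FPKM, a call lost when rescaled to TPM (limma adjusted p = 0.0912). The remaining subunits of the NDC80 complex, SPC24 and SPC25, did not pass, at 99.5% and 93.7% of control. Of 8 further kinesins, 2 were higher and 2 lower (25% each, near the 27.3% and 28.2% of all tested genes). KIFC1 and KIF18B rose 1.27-fold and 1.41-fold, and KIF2A fell to 66.4% of control. When rescaled to TPM, 1 was higher and 0 lower, and KIFC1 and KIF2A lost their calls (limma adjusted p = 0.0773 for KIFC1 and 0.0506 for KIF2A).

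Of 13 kinases of mitosis and their partners, 6 were higher and 5 lower (46.2% and 38.5%, against 27.3% and 28.2% of all tested genes). When rescaled to TPM, 5 were higher and 1 lower. WEE1, the kinase that holds CDK1 inactive, fell: it stood at 22.3, 24.1 and 24.2 FPKM in shCAVIN1 replicates 1 to 3 and at 37.5, 39.9 and 38.3 FPKM in shCtrl, with the groups far apart (log2 -0.70, SE 0.0496, limma adjusted p = 0.000115). PKMYT1, its membrane-bound relative, did not pass, at 90.1% of control. CKS2, a small subunit that binds CDK1, rose to 293 ± 8.42 FPKM in shCAVIN1 against 174 ± 17.3 FPKM in shCtrl. CDCA8, the borealin of the passenger complex, rose 1.62-fold beside BIRC5, and INCENP, the scaffold of that complex, passed narrowly as lower at 89.2% of control (limma adjusted p = 0.0488), which no other scaling kept (0.0597 to 0.883). Of 20 condensin and cohesin genes, 6 were higher and 5 lower (30% and 25%, near the shares of all tested genes), and 2 were higher and 1 lower when rescaled to TPM. The condensin II subunit NCAPD3 rose 1.53-fold, and CDCA5 and WAPL, which act against each other on cohesin, fell to 63.5% and 73.3% of control, calls that were lost when rescaled to TPM (limma adjusted p = 0.0634 for CDCA5 and 0.183 for WAPL).

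Among transcription factors of cell cycle genes, 9 of 22 were higher and 6 lower (40.9% and 27.3%, against 27.3% and 28.2% of all tested genes). When rescaled to TPM, 4 were higher and 0 lower. FOXM1, an activator of G2 and M genes, stood at 38.5, 38.3 and 36.8 FPKM in shCAVIN1 replicates 1 to 3 and at 32.5, 30.6 and 29.4 FPKM in shCtrl (log2 0.29, SE 0.0492, limma adjusted p = 0.00308). MYBL2, which acts with it, lay on the opposite side, at 63.9, 69.9 and 71.7 FPKM in shCAVIN1 against 99.4, 109.7 and 102 FPKM in shCtrl (log2 -0.59, SE 0.0629, limma adjusted p = 0.000491). Neither gene overlapped between groups, and neither passed when rescaled to TPM (limma adjusted p = 0.102 for FOXM1 and 0.0967 for MYBL2). In that setting the log2 fold change was 0.416 (SE 0.169) for FOXM1 and -0.471 (SE 0.187) for MYBL2. TFDP1, the dimer partner of E2F proteins, rose 2.66-fold to 109.7 ± 0.768 FPKM, and E2F8, a repressor of the E2F family, 1.37-fold.

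Of 34 genes of S phase, 9 were higher and 14 lower, with a median log2 of -0.05. These were 26.5% and 41.2%, against 27.3% and 28.2% of all tested genes. When rescaled to TPM, 4 were higher and 0 lower with a median of 0.07, where 15.8% of all tested genes were higher with a median of 0.09. Relative to the median of all tested genes, the S phase median was -0.028 as reported and -0.021 when rescaled to TPM. RRM2, a subunit of ribonucleotide reductase, rose to 122 ± 4.74 FPKM in shCAVIN1 against 78.0 ± 1.69 FPKM in shCtrl, and CDC45 and MCM10, which start replication forks, fell to 64.5% and 67.4% of control, calls that were lost when rescaled to TPM (limma adjusted p = 0.0688 for CDC45 and 0.11 for MCM10). The difference between this list and the 36 genes was not tested. Of 14 cyclins, kinases and inhibitors of G1, 7 were higher and 4 lower (50% and 28.6%, against 27.3% and 28.2% of all tested genes). When rescaled to TPM, 5 were higher and 3 lower. CDKN1A, the CDK inhibitor p21, rose to 48.8 ± 0.377 FPKM in shCAVIN1 against 31.5 ± 2.15 FPKM in shCtrl, CDKN3, a phosphatase that acts on CDK1 and CDK2, rose 2.03-fold, and CCND2, a D-type cyclin, fell to 0.166 ± 0.0627 FPKM against 4.44 ± 0.196 FPKM. CKS2, UBE2S and other short members of these lists have pseudogenes or near copies, and their values are uncertain to that extent.

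**Figure D4:**
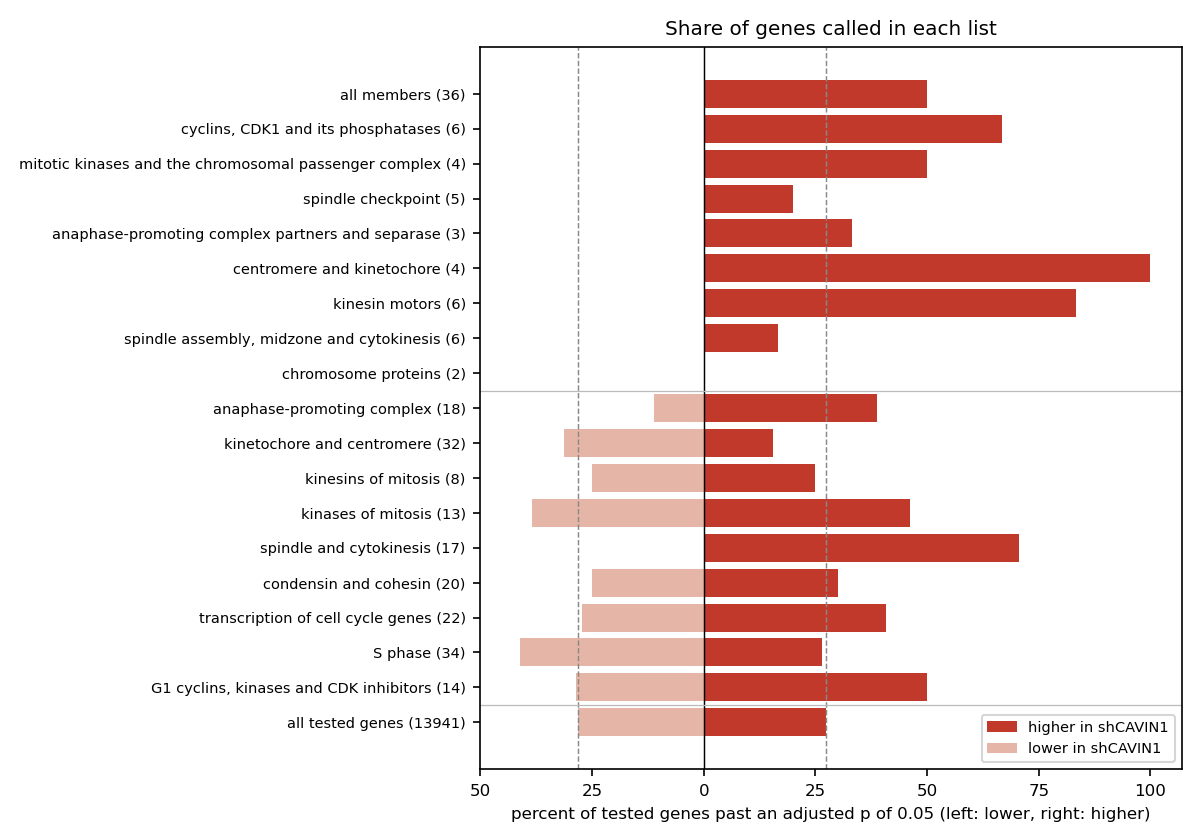
Percent of tested genes past an adjusted p of 0.05 in each list, higher in shCAVIN1 to the right and lower to the left, with the number tested in brackets and dashed lines at the 27.3% and 28.2% of all tested genes. No bar of the 36 genes or of their roles points left, and those of S phase and the further kinetochore genes are longer on the left, which was not so when rescaled to TPM (4 higher and 0 lower for S phase, 2 higher and 1 lower for kinetochore genes). Relative to the median of all tested genes, the medians of these lists hardly changed with TPM, from -0.028 to -0.021 for S phase and from -0.033 to -0.023 for kinetochore genes.

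The number of members called depended on the scaling and on which libraries were used. Rescaled to TPM over all rows, which include RN7SK, 11 members were higher and 0 lower, and the median of all tested genes moved by 0.11 to 0.09; relative to it the members' median was 0.25, against 0.24 as reported. That setting called 3496 genes, of which 64.5% were higher, against 49.2% of 7734 as reported. The members that lost their call there had larger log2 fold changes than as reported. Errors were wider, as for FOXM1, with an SE of 0.169 against 0.0492. Summed FPKM over all rows ran from 758837 to 1043843 in shCtrl and from 803134 to 840887 in shCAVIN1. The part of these sums in the lost calls was not tested. Under quantile normalization 20 members were higher and 2 lower, BUB1B and UBE2C, beside 30.7% of all tested genes higher and 3759 genes lower. Both members also passed as lower when scaled to the protein-coding sum and without shCtrl replicate 1. Under all 16 alternatives 10 of the 18 rises kept their call: CDK1, BUB1, CDC20, CENPA, NDC80, NUF2, CENPE, KIF2C, KIF20A and DLGAP5. How many of all tested genes kept a call under all 16 was not computed, so this count cannot be read as particular to the members.

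**Figure D5:**
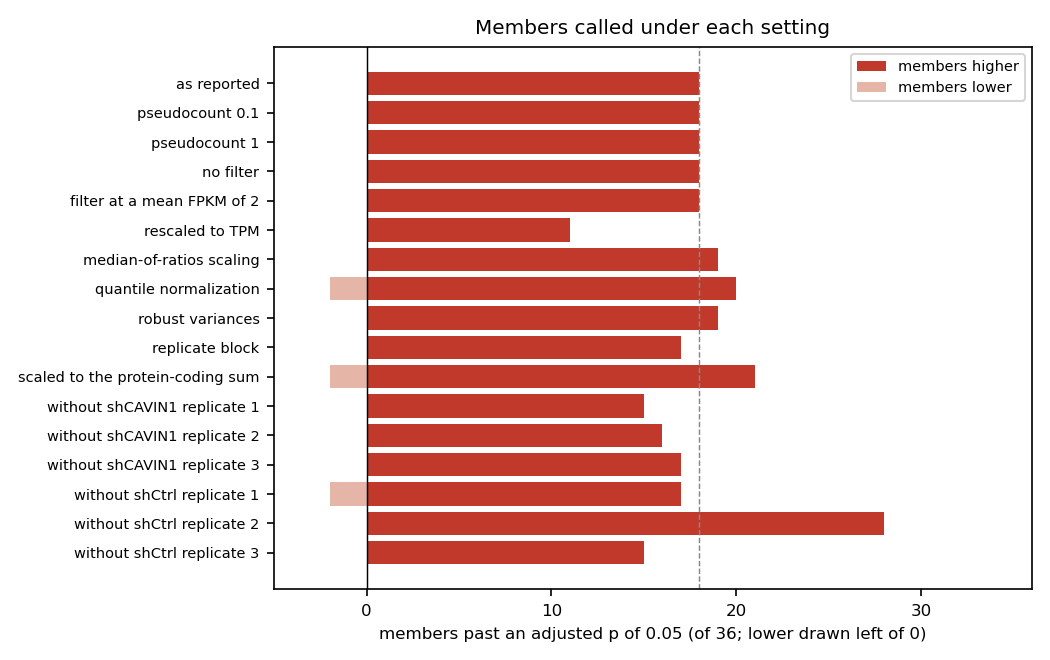
Number of the 36 genes past an adjusted p of 0.05, higher drawn right and lower drawn left of 0, as reported and under 16 alternatives, with a dashed line at the 18 reported. The count of higher members runs from 11 when rescaled to TPM to 28 without shCtrl replicate 2, and 3 settings give 2 lower members. Of all tested genes, 15.8% were higher when rescaled to TPM and 31% without shCtrl replicate 2.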

How the data were processed

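RNA of 6 libraries was sequenced from a stranded total RNA kit, per the labels' protocols. The authors deposited 1 table of FPKM per gene for 33117 rows. The submitters' processing notes name CASAVA, bcl2fastq 2.17.1.14, TopHat and TopHat2 2.2.5 and the genome GRCh38; the sources used here name neither the program that computed FPKM nor how it treated strand. FPKM are not counts, so no count model was used and depth is unknown; the number of libraries limits the precision.

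Genes with a mean of at least 0.5 FPKM (13941) were tested in limma 3.58.1 (R 4.3.3) on the log2 of FPKM + 0.5, with a variance trend and Benjamini-Hochberg adjustment at 0.05. The pseudocount makes fold changes of low genes too small. The script was tested on simulated data. Ratios were compared by exact two-sided permutation. Promoters came from RefSeq (GRCh38.p14) and the hairpin's position from GENCODE 29. All 254 list entries matched a row, 5 of them by an older symbol.

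Values in every library are given for the 2 members of each role with the lowest adjusted p and the member with the highest mean; of other lists, the 3 genes with the lowest adjusted p are named, besides CAVIN1, FOXM1, MYBL2 and CDKN1A. CCNB1, SPC24, SPC25, PKMYT1 and INCENP were added after their values were seen. The members and lists were chosen with earlier results of these data known. Alternatives covered pseudocounts, filters, scalings, variance estimates, a replicate block and leaving out each library.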

Additional observations from a re-analysis of the deposited data

How the results depend on the processing

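Rescaling to TPM gave 11 members higher and 3496 genes called in all, against 18 and 7734 as reported, and a median log2 fold change of the members of 0.34, against 0.22. Members lower, 0 as reported, numbered 2 with quantile normalization and 2 when scaled to the protein-coding sum, a scaling chosen after seeing the data. Of all tested genes, 3759 and 4137 were lower in these settings, against 3927 as reported. Leaving out 1 library at a time gave 15 to 28 members higher, 0 to 2 lower, 6227 to 8511 genes called and member medians of 0.19 to 0.24; the highest count came without shCtrl replicate 2. Leaving out libraries gave CCNB2 log2 fold changes of -0.053 to 0.095, against -0.003 as reported, which had not passed (limma adjusted p = 0.98). The highest, without shCtrl replicate 2, passed as higher (limma adjusted p = 0.0265). Its adjusted p ran from 0.0265 to 0.988 over the alternatives. The cause was not tested. Of 576 single-member results under the 16 alternatives, 531 kept their direction and side of the threshold or had none to lose, and 20 lost the call. A call with the reported sign was gained in 24. In 1, CCNB2 without shCtrl replicate 2, a call was gained with the opposite sign, from a value near 0. AURKB, MAD2L1, TPX2, MKI67 and TOP2A were not called under any alternative. Both pseudocounts, both filters and robust variances kept all 18 calls. With the replicate number as a block, 17 members were higher, without KIF4A, and 7167 genes were called. The labels do not say that a number pairs samples. The deviations of same-numbered libraries correlated at 0.094, 0.071 and -0.028, and those of libraries with different numbers at -0.146 to 0.077. The same-numbered control correlated best for shCAVIN1 replicates 1 and 2, and shCtrl replicate 2 did for shCAVIN1 replicate 3. Values this weak, from 3 libraries per group, cannot decide whether the numbers pair samples. Without counts, no limit from depth can be given.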
